A study of Rattus norvegicus with 20 samples.

Results

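The genes described here are 10 heat shock genes: 9 molecular chaperones and Hsf1, the transcription factor that switches many of them on. They were taken by gene symbol from a table of 30443 genes, each measured in 20 rat libraries. They were chosen by the FPKM values of Hspa1b, a stress-inducible HSP70 that stood higher in stimulated than in control animals, so the comparison of the 2 groups is given for them as a description, without a test. The question was whether that split was shared by the other chaperones. Of the 10 genes, 8 reached 1 FPKM (the fragments of a gene divided by its length and by the size of the library) in at least 1 library and entered the fits, as 15210 genes of the table did. Hspa1b passed only through 4 libraries of stimulated animal 2 and peaked at 1.43 FPKM. Hspa8 passed through 3 libraries and peaked at 1.39 FPKM. The genes outside were Hspa1l, with a highest value of 0.458 FPKM, and Hsp90aa1, listed at 0.1 FPKM in all 20 libraries.

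The libraries came from 4 wild-type adult female Long-Evans rats, 6 to 8 months old. Every rat had a C4 hemi-contusion of 0.7 mm displacement and, 2 weeks later, dexamethasone followed by an electrode array in the motor cortex opposite the injury. The threshold current that moved the forelimb was tested 1 week after the implant. The 2 stimulated animals then had 1 week of pulses at 10 Hz for 5 hours a day, in cycles of 5 minutes on and 2 minutes off. The pulses were at 80% of the threshold current. The 2 control animals wore a sham device and received no current. Each animal gave 5 regions of tissue. Region 1 was the subcortical white matter under the implant and region 2 its counterpart in the other hemisphere. Region 3 was the cord rostral to the lesion, region 4 the lesion and region 5 the cord caudal to it. Each region therefore had 2 stimulated and 2 control libraries, and the 5 libraries of an animal share that animal. The design is limited to 1 sex, 1 pattern of stimulation and bulk tissue, in which more cells of a type and more RNA per cell cannot be told apart.

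Heat shock proteins bind unfolded or damaged proteins and help them refold or be degraded. In unstressed cells HSF1 is held inactive; when unfolded proteins accumulate it binds paired GAA units, the heat shock element, in the promoters of HSP70, HSP40, HSP110 and small heat shock protein genes. The chaperones of the endoplasmic reticulum (ER), with Hspa5 (BiP) at their head, answer instead to the unfolded protein response, whose factors bind the ER stress element.

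Promoter sequences are shown for the 5 members with the clearest readings, because they show which of the 2 response elements each gene carries. Of the 10 genes, 7 had an entry in the RefSeq promoters of the GRCr8 build, which cover 250 bases before and 50 after the start. Hspa1b, Hsp90aa1 and Hsf1 had none. The windows are chr12:26432252-26432551 on the minus strand for Hspb1, chr19:41431092-41431391 on the minus strand for Dnajb1, chr12:10427118-10427417 on the plus strand for Hsph1, chr9:64083988-64084287 on the minus strand for Hspd1 and chr3:38452766-38453065 on the plus strand for Hspa5. Capitals mark matches, on either strand, to a pair of inverted GAA units (GAANNTTC or TTCNNGAA), to 3 such units in a row, which contain the pair, or to the ER stress element (CCAAT and CCACG with 9 bases of any kind between them). The expression values were made on another build, Rnor6, and carry no coordinates.
Hspb1: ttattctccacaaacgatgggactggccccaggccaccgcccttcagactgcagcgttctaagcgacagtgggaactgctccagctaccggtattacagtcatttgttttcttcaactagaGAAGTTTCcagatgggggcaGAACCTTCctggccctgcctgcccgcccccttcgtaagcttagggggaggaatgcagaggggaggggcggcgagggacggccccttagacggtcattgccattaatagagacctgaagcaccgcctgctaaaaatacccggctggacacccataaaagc
Dnajb1: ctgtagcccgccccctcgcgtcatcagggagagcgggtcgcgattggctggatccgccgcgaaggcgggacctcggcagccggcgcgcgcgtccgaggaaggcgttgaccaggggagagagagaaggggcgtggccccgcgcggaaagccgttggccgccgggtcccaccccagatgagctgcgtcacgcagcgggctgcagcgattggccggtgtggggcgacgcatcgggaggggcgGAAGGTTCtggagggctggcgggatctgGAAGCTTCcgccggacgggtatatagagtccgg
Hsph1: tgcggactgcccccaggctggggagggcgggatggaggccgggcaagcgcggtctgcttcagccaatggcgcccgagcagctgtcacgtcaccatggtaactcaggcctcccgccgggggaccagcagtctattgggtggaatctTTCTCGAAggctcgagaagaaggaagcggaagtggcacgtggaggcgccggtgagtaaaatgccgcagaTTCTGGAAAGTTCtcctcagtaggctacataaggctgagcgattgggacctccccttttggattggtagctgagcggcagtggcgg
Hspd1: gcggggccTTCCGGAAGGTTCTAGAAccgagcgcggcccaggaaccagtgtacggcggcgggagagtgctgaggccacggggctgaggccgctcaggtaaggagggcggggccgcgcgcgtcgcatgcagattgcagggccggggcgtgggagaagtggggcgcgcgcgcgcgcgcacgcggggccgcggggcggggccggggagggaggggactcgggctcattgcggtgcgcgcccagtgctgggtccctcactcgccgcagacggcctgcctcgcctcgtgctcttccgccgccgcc
Hspa5: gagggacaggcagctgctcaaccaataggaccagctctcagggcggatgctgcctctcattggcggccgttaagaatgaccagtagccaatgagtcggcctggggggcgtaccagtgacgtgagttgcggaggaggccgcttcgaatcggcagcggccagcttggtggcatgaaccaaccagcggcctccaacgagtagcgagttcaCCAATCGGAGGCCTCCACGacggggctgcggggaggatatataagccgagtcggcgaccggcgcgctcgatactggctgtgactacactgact

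A pair of inverted GAA units was found in 5 of the 7 members with a sequence, Hspa8, Hspb1, Hsph1, Dnajb1 and Hspd1, and in 15.9% of the 33469 RefSeq promoters of the same length. The run of 3 units was found in Hspa8, Hsph1 and Hspd1 and in 0.798% of all promoters. The ER stress element was found in Hspa5, starting 43 bases before the start site, and in 0.0657% of all promoters. These are matches of letters in a window, and no factor binding was measured.

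Hspa1b (ENSRNOG00000050647) was low in every library but kept the animals in 1 order. In region 1 it read 0.153 and 0.116 FPKM in controls 1 and 2 and 0.204 and 1.43 FPKM in stimulated animals 1 and 2. In region 2 it read 0.147 and 0.1 FPKM in the controls, the second being the floor of the table, and 0.169 and 0.464 FPKM in the stimulated animals. In region 3 the values were 0.390 and 0.146 FPKM against 0.470 and 1.15 FPKM. Stimulated animal 2 stood apart in all of these regions, while stimulated animal 1 lay just above control 1. In region 4 the values were 0.524 and 0.123 FPKM against 0.580 and 1.13 FPKM. In region 5 they were 0.549 and 0.2 FPKM against 0.549 and 1.32 FPKM, stimulated animal 1 being above control 1 only beyond the third digit.

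**Figure D1:**
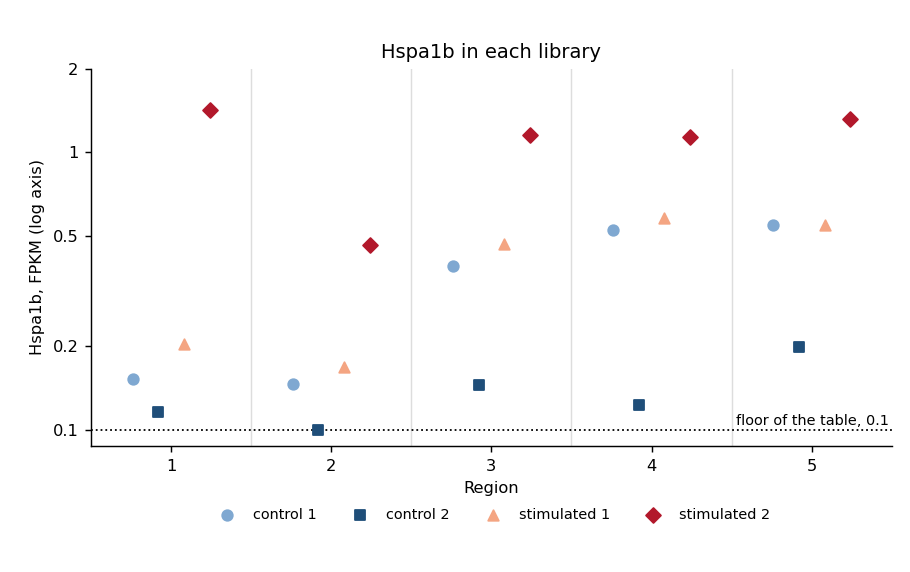
Hspa1b in each of the 20 libraries, in FPKM on a log axis, by region and animal. The points follow the order control 2, control 1, stimulated 1, stimulated 2 in each region, and stimulated animal 2 lies between 0.464 and 1.43 FPKM.

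Stimulated minus control, the log2 fold change of Hspa1b was 2.02 (SE 1.04) in region 1, 1.21 (SE 0.60) in region 2, 1.63 (SE 0.72) in region 3, 1.68 (SE 0.81) in region 4 and 1.36 (SE 0.69) in region 5. Averaged over the regions of each animal it was 1.58 (SE 0.48). These sizes rested on stimulated animal 2 and control 2: the averaged difference was 0.80 without the first and 0.99 without the second. Stimulated animal 1 exceeded the control mean by 0.48 to 1.19 on the log2 scale, and the controls themselves differed by 0.39 to 2.09. Its lead over the control mean was smaller than the gap between the controls in regions 2 to 5. On the log2(FPKM + 1) scale, which compresses the differences of low genes, the averaged difference was 0.45. The near-identical copy Hspa1a was listed at 0.1 FPKM in every library, and how reads shared by the 2 copies were split is not given in the sources used here.

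In all 5 regions Hspa1b was higher in both stimulated than in both control libraries, as were 21 of 15210 genes (0.138%). It was the only tested gene with the order control 2, control 1, stimulated 1, stimulated 2 in every region, and 62 genes (0.408%) kept some fixed order of the animals. Stimulated animal 2 was highest in every region for 99 genes (0.651%) and control 1 for 96. The gene was chosen for this pattern, so these counts describe it and test nothing.

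The other members were read for the same split. In region 1, 5 of the 10 members had both stimulated libraries above both controls (Hspa1b, Hspa5, Hspa8, Hspb1 and Dnajb1), beside 21.2% of all genes. The same 5 did so in region 2, beside 20.2% of all genes. In region 3 there were 3 (Hspa1b, Hspa8 and Hsph1) beside 5.14%, in region 4 there were 3 (Hspa1b, Hspa1l and Hsph1) beside 12.5%, and in region 5 there were 3 (Hspa1b, Hspa5 and Dnajb1) beside 18.5%. Hspa1l was lower without overlap in region 3, as 24.7% of all genes were. Nothing is read from these counts, since the contrast chose the members. Without stimulated animal 2 the counts were 7, 5, 5, 8 and 3 in regions 1 to 5. All genes then stood at 49.4%, 36.8%, 23.5%, 57.4% and 25.8%. Without control 1 the counts were 8, 8, 6, 7 and 8, beside 33.5%, 56.9%, 18.9%, 29.7% and 61.5% of all genes. Upper-quartile scaling and quantile normalization each gave 5 in region 3, beside 15.5% and 14.1% of all genes. Across the table, limma passed 0 genes in regions 1 to 4, 3 genes (0.0197%) in region 5 and 24 genes (0.158%) in the mean over regions, and no member was among them. At an unadjusted p under 0.05, limma counted 828, 215, 522, 341, 546 and 811 genes in the same order.

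Hspb1 (ENSRNOG00000023546, HSP27, a small heat shock protein of stressed neurons, glia and vessels) had the widest range of the members. In region 1 it read 22.5 and 12.7 FPKM in controls 1 and 2 and 34.9 and 144 FPKM in stimulated animals 1 and 2. In region 2 it read 4.62 and 3.37 FPKM in the controls and 4.87 and 56.5 FPKM in the stimulated animals. Stimulated animal 2 was far above the other 3 in both hemispheres, and stimulated animal 1 was close to control 1 in region 2. In region 3 the values were 118 and 66.5 FPKM against 106 and 85.2 FPKM. In region 4 they were 181 and 165 FPKM against 213 and 145 FPKM. In region 5 they were 226 and 205 FPKM against 219 and 229 FPKM, so the groups overlapped in all cord regions. The log2 fold change was 2.06 (SE 0.80) in region 1 and 2.07 (SE 1.34) in region 2, against 0.10, 0.03 and 0.06 in regions 3, 4 and 5. Against the control mean, stimulated animal 2 differed by 3.08 and 3.84 on the log2 scale in regions 1 and 2, and stimulated animal 1 by 1.04 and 0.30.

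Some cell type markers also stood high in the white matter of stimulated animal 2. The summed level of 8 microglia and macrophage markers was 517 FPKM in its region 2, against 67.9 to 85.9 FPKM in the other 3 animals, and all 8 genes were highest there. In region 1 that sum was 467 FPKM against 172 to 302 FPKM, with 5 of the 8 highest and 1 lowest in stimulated animal 2. The sum of 5 fibroblast markers was 146 FPKM against 27.2 to 46.1 FPKM in region 1 and 42.8 FPKM against 6.23 to 8.70 FPKM in region 2, with 4 of the 5 highest in stimulated animal 2 in each and Col1a2 listed at 0.1 FPKM throughout. In regions 3 and 4 the microglia and macrophage sum of stimulated animal 2 was 149 and 290 FPKM, against 136 to 216 and 386 to 635 FPKM. Its fibroblast sum was 38.2 FPKM against 24.7 to 32.6 FPKM in region 3 and 36.1 FPKM against 57.7 to 67.8 FPKM in region 4. In region 5, where the groups of Hspb1 overlapped, its fibroblast sum was 146 FPKM against 44.8 to 86.8 FPKM, with 4 of the 5 highest. Its sum of 5 cortical neuron markers was 364 FPKM in region 1, against 490 to 579 FPKM, and 522 FPKM in region 2, against 517 to 594 FPKM. Its sum of 8 oligodendrocyte markers was the lowest of the animals in region 1 and the highest in region 2. The part of these cell types in the chaperone values was not tested.

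Hspa5 (ENSRNOG00000018294, BiP, the HSP70 of the ER lumen) was among the most abundant members. In region 1 it read 62.7 and 58.4 FPKM in controls 1 and 2 and 86.0 and 117 FPKM in stimulated animals 1 and 2. In region 2 the values were 65.0 and 52.4 FPKM against 74.0 and 112 FPKM. In both regions each stimulated animal was above each control, with stimulated animal 2 the higher. In region 3 the values were 85.8 and 87.3 FPKM against 100.2 and 86.2 FPKM. In region 4 they were 102 and 81.2 FPKM against 119 and 82.6 FPKM, and in region 5 they were 104 and 88.7 FPKM against 107 and 123 FPKM. The groups overlapped in regions 3 and 4 and, in region 5, parted by a small step between control 1 and stimulated animal 1. The log2 fold change was 0.73 (SE 0.19) in region 1, 0.64 (SE 0.27) in region 2, 0.10 (SE 0.11) in region 3, 0.12 (SE 0.26) in region 4 and 0.26 (SE 0.14) in region 5. In regions 3 and 4 it turned to -0.01 and -0.14 without stimulated animal 1.

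**Figure D2:**
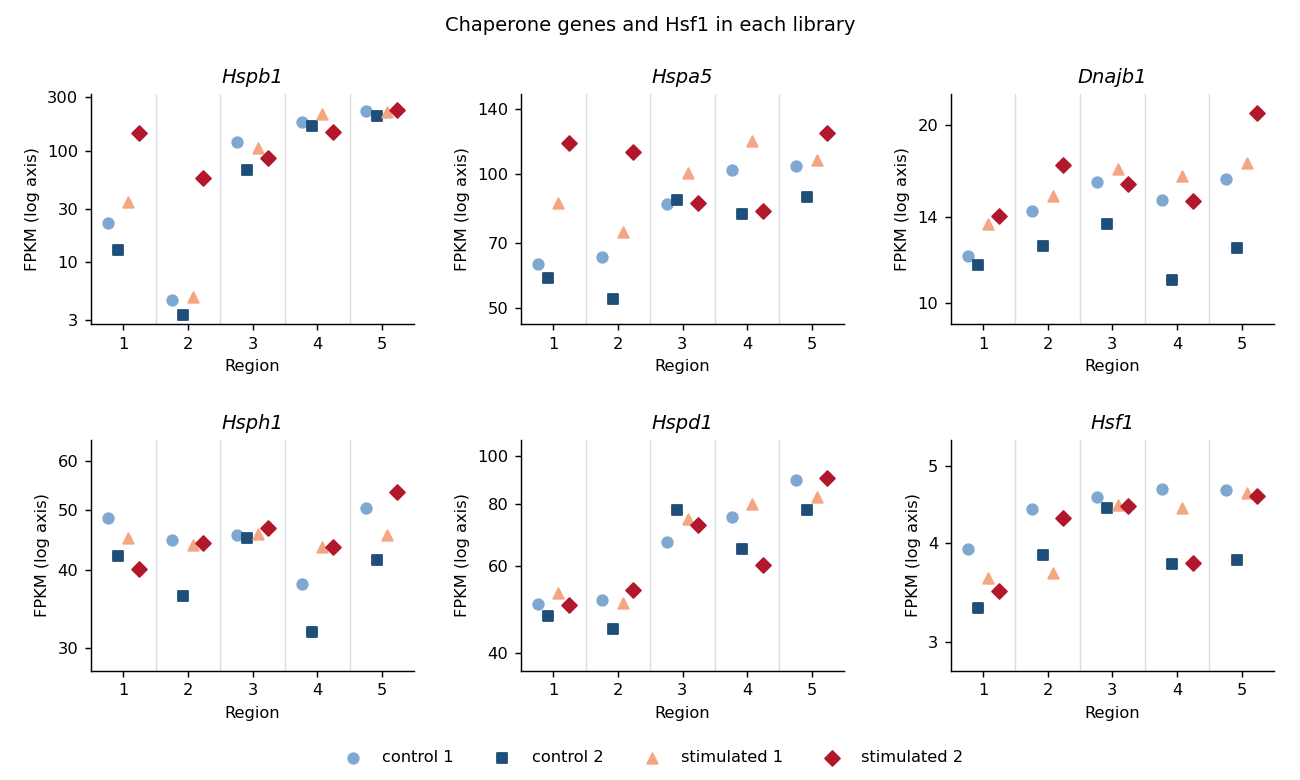
The 6 members with readable levels in each of the 20 libraries, in FPKM on log axes with their own ranges. Hspb1 and Hspa5 have stimulated animal 2 (diamonds) highest in regions 1 and 2, while the groups mix for Hspd1 and Hsf1 in each region.

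The partners of Hspa5 in the ER were read from a list of 23 tested genes of ER folding and the unfolded protein response, 5 of which are also in the wider chaperone list below. In region 1, 16 of the 23 had both stimulated libraries above both controls, and in region 2, 15 had, beside 21.2% and 20.2% of all genes, with 12 genes in common. In regions 3, 4 and 5 the counts were 0, 0 and 2, beside 5.14%, 12.5% and 18.5%. The median log2 fold change of the list was 0.32 and 0.36 in regions 1 and 2, beside -0.03 and 0.08 over all genes, and -0.04, -0.03 and 0.09 in regions 3, 4 and 5. No gene of the list passed limma in any region, and 4, 0, 0, 0 and 0 had an unadjusted p under 0.05 in regions 1 to 5. Of all 15210 genes, 828, 215, 522, 341 and 546 had one. Without stimulated animal 2, 22 genes of the list were higher in region 1 beside 49.4% of all genes, and 17 in region 2 beside 36.8%. The cord counts were less steady. Without that animal they were 12, 16 and 2 in regions 3, 4 and 5, beside 23.5%, 57.4% and 25.8% of all genes. Without stimulated animal 1 they were 0, 0 and 18, beside 10.4%, 19.4% and 51.7%. In that case 21 and 19 genes of the list were lower in regions 3 and 4, beside 57.9% and 56.6% of all genes. Without control 1 the cord counts were 1, 4 and 19, beside 18.9%, 29.7% and 61.5% of all genes. Upper-quartile scaling gave 19, 16, 5, 1 and 9 in regions 1 to 5, beside 23.8%, 12.5%, 15.5%, 16% and 22.6%. Quantile normalization gave 17, 15, 5, 1 and 8, beside 18.7%, 10.8%, 14.1%, 18.7% and 18.4% of all genes.

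Of these partners, 4 are named here after their values were seen. Sdf2l1, a cofactor of BiP, read 4.58 and 5.99 FPKM in the region 1 controls and 7.16 and 14.5 FPKM in the stimulated animals, and 3.22 and 2.62 FPKM against 3.97 and 15.6 FPKM in region 2. Creld2, an ER folding factor, read 3.22 and 3.47 FPKM against 4.24 and 8.79 FPKM in region 1. P4hb, a protein disulfide isomerase, read 40.6 and 37.5 FPKM against 49.3 and 71.3 FPKM in region 1. Ddit3 (CHOP), the transcription factor of prolonged ER stress, read 9.35 and 10.5 FPKM against 11.5 and 17.6 FPKM in region 1. In region 1, stimulated animal 2 was highest and stimulated animal 1 next in each, as for Hspa5. In region 2 stimulated animal 1 lay next to control 1 for Creld2, at 3.504 against 3.5001 FPKM, and for P4hb, at 25.8 against 25.5 FPKM. Ddit3 was higher there in stimulated animal 1 (10.8 FPKM) than in stimulated animal 2 (10.5 FPKM). The log2 fold changes in region 1 were 0.96 (SE 0.41), 0.87 (SE 0.41), 0.60 (SE 0.22) and 0.52 (SE 0.25) in that order, all with a limma adjusted p of 0.712.

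Dnajb1 (ENSRNOG00000021824, HSP40, the co-chaperone that hands clients to HSP70) was the member whose animals were ordered most like those of Hspa1b. It read 12.0 and 11.6 FPKM in the region 1 controls and 13.6 and 14 FPKM in the stimulated animals. In region 2 it read 14.3 and 12.5 FPKM against 15.2 and 17.1 FPKM. In region 3 the values were 16.0 and 13.6 FPKM against 16.9 and 15.9 FPKM. Control 2 was the lowest library in all of these and in the cord below. In region 4 the values were 14.9 and 10.9 FPKM against 16.4 and 14.9 FPKM, and in region 5 they were 16.2 and 12.4 FPKM against 17.3 and 20.9 FPKM. The groups were separate in regions 1, 2 and 5 and overlapped in regions 3 and 4. Its log2 fold change lay between 0.15 in region 3 and 0.42 in region 5, with a mean over regions of 0.27 (SE 0.12). Without control 2 that mean was 0.14, and without stimulated animal 2 it was 0.25.

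Hsph1 (ENSRNOG00000000902, HSP110, the nucleotide exchange factor of HSP70) differed little between groups. Its values over all libraries ran from 31.9 to 53.5 FPKM, with a median of 44.5 FPKM. In region 4 it read 38.0 and 31.9 FPKM in the controls and 43.7 and 43.6 FPKM in the stimulated animals, a difference of 0.33 on the log2 scale (SE 0.14). In region 1 it was 48.5 and 42.2 FPKM against 45.1 and 40.2 FPKM, a log2 fold change of -0.09 (SE 0.13). Region 4 was the one region where its groups parted by more than 1 FPKM. Its groups also did not overlap in region 3, where all 4 values lay between 45.0 and 46.7 FPKM.

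Hspd1 (ENSRNOG00000014525, HSP60, the chaperonin of the mitochondrial matrix) and Hsf1 (ENSRNOG00000021732) did not separate the groups in any region. Hspd1 had log2 fold changes from -0.01 in region 4 to 0.12 in region 2. In region 1 it read 50.2 and 47.6 FPKM against 52.9 and 50.1 FPKM. In region 4 it read 75.5 and 64.9 FPKM against 80.0 and 60.3 FPKM, the stimulated animals lying on both sides of the controls. Hsf1, whose protein is controlled mainly after translation, had log2 fold changes from -0.06 in region 2 to 0.13 in region 5. Its values ran from 3.31 to 4.68 FPKM over the 20 libraries, and its mean difference over regions was 0.00 (SE 0.12).

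The remaining members had values too low to be read as levels of expression, and their group splits are given only as listed values. The same limit holds for Hspa1b, whose median over all libraries was 0.427 FPKM, below the 0.768 FPKM of Hspa8. Hsp90aa1 (ENSRNOG00000007219), the inducible cytosolic HSP90, was listed at 0.1 FPKM in every library, whereas its constitutive relative Hsp90ab1 ran from 184 to 349 FPKM. Hspa8 (ENSRNOG00000032585), the constitutive HSC70 that most cells hold in abundance, was listed between 0.422 and 1.39 FPKM. The glycolytic gene Tpi1, which every cell uses, was listed just as low, between 0.306 and 1.63 FPKM, so a low value here is not by itself a low level. In Hspa8 the log2 fold change was 0.42 (SE 0.20) in region 2 and -0.47 (SE 0.63) in region 5. Region 5 was the widest, with 1.39 and 0.535 FPKM in the controls and 0.422 and 0.917 FPKM in the stimulated animals. Hspa1l (ENSRNOG00000047966), an HSP70 of the testis and the neighbor of Hspa1a, read 0.294 and 0.307 FPKM in the region 3 controls against 0.265 and 0.233 FPKM, and 0.217 and 0.161 FPKM in the region 4 controls against 0.252 and 0.249 FPKM. Its groups parted in opposite directions in these neighboring regions.

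**Figure D3:**
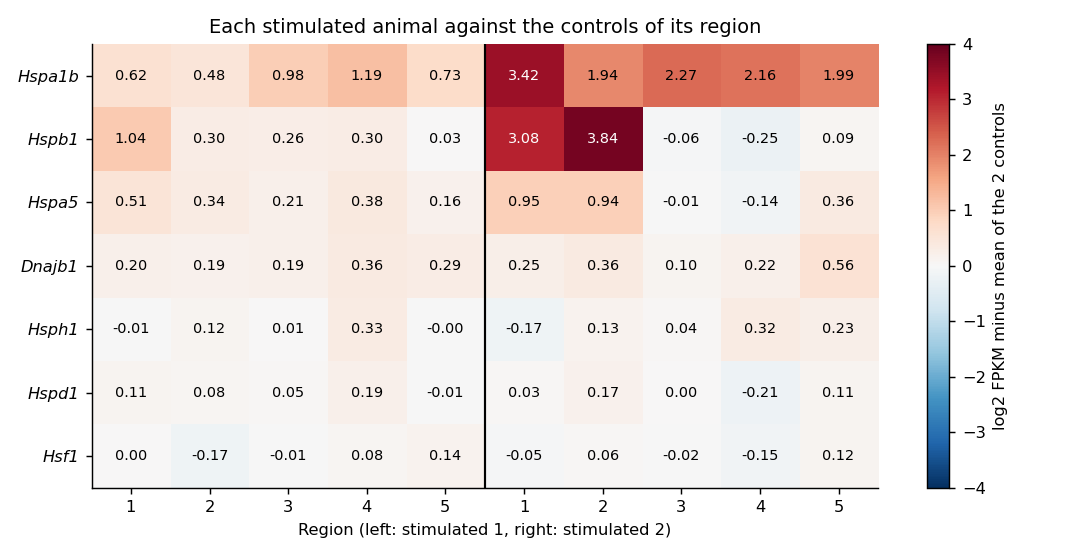
Each stimulated animal minus the mean of the 2 controls of its region, in log2 FPKM, for 7 members (rows) in 5 regions (columns), stimulated animal 1 on the left and stimulated animal 2 on the right. Hspa1b is positive in each column, Hspb1 reaches 3.08 and 3.84 only in regions 1 and 2 of stimulated animal 2, and Hspd1 and Hsf1 stay between -0.21 and 0.19.

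The likeness of each gene to Hspa1b was measured as Pearson's r of log2 FPKM over 20 libraries after each region's mean was taken away, among 13492 genes with a mean of at least 1 FPKM. The 20 points come from 4 animals, so r is a description. The 5 most alike genes were Acer2 (an alkaline ceramidase) at 0.90, Pmaip1 (Noxa, a stress-induced killer protein) at 0.89, Apold1 (an early response gene of endothelium) at 0.85, AABR07069454.1 at 0.85 and Hspa12b (an HSP70 relative of endothelium) at 0.83. Of these, Hspa12b had stimulated animal 2 highest in all 5 regions, and Acer2 in 2. The groups of Hspa12b were separate in only 1 region. Its geometric mean over regions was 1.81 FPKM in stimulated animal 1, below the 2.09 FPKM of control 1. Among the members, Dnajb1 came closest with r = 0.80 (Spearman's rho 0.81), above 99.9% of the ranked genes. Hspa5 followed at 0.69 and Hspb1 at 0.63, and Hspd1 was last at 0.21.

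The region contrasts did not choose the members and were tested with limma over 15210 genes. White matter (regions 1 and 2) was compared with cord (regions 3 to 5). The labels of the tissues held: the sum of 6 spinal Hox genes was at the floor of 0.600 FPKM in each white matter library and 14.9 to 38.3 FPKM in the cord. Regions 1 and 2 also carried markers of cortical neurons, with a sum of 364 to 594 FPKM for 5 genes against 5.60 to 24.9 FPKM in the cord. Their sum of 8 oligodendrocyte markers was 761 to 3206 FPKM against 7727 to 11222 FPKM in the cord, so these pieces were poorer than the cord in markers of the cell that makes myelin. The part of this makeup in the chaperone values was not tested.

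Of the 8 tested members, 4 were lower in white matter and none was higher, beside 47.1% of all genes lower and 25% higher, 72.2% in all, and a median of all genes of -0.18. Hspb1 was 35.4 ± 47.4 FPKM (SD, n = 8 libraries) in white matter and 163 ± 58.0 FPKM (n = 12) in cord, which was -3.18 on the log2 scale (SE 0.45, limma adjusted p = 3.92e-06). Stimulated animal 2 held the highest white matter value of it, 144 FPKM, which lay within the cord range of 66.5 to 229 FPKM. Hspd1 was 50.1 ± 2.87 FPKM in white matter and 76.1 ± 9.12 FPKM in cord, which was -0.60 on the log2 scale (SE 0.06, limma adjusted p = 2.00e-08). Its highest white matter library, at 53.7 FPKM, was below its lowest cord library, at 60.3 FPKM. Both calls held under all 12 alternatives tried.

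Hspa5 fell by 0.35 on the log2 scale (SE 0.14, limma adjusted p = 0.0290), from 97.3 ± 14.2 FPKM in cord to 78.5 ± 24.5 FPKM in white matter. This call held under 6 of 12 alternatives, with an adjusted p of 0.0843 under quantile normalization, and the high white matter values of both stimulated animals overlapped the cord. Hsf1 fell by 0.19 (SE 0.06, limma adjusted p = 0.00903), from 4.36 ± 0.358 FPKM to 3.83 ± 0.387 FPKM, about as far as the median gene, and under quantile normalization its adjusted p was 0.164. Hspa1b differed by -1.07 (SE 0.54, limma adjusted p = 0.0827), with a white matter median of 0.161 FPKM, near the floor of 0.1 FPKM. With the animal as a block its SE was 0.22. The block takes out the steady order of the 4 animals. That order belongs to the split for which Hspa1b was chosen, so no p is given for the blocked fit. Dnajb1 differed by -0.16 (SE 0.09, limma adjusted p = 0.122), and with the animal as a block its adjusted p was 0.0114. Hsph1 and Hspa8 differed by -0.03 (SE 0.07) and -0.23 (SE 0.20).

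**Figure D4:**
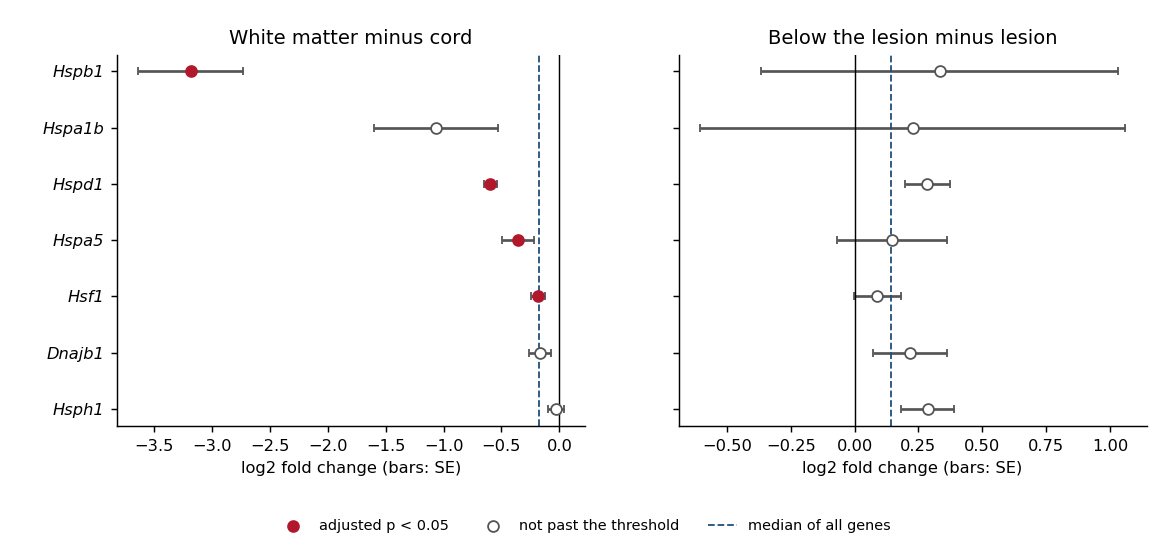
Log2 fold changes of 7 members between white matter and cord (left) and between the cord below the lesion and the lesion (right), with bars of 1 SE and the median of all genes as a dashed line. On the left Hspb1 lies at -3.18 and Hspd1 at -0.60, and on the right no member passed the threshold.

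Between single regions no member passed the threshold in the values as deposited with all libraries and no block, while 8.61% of all genes did between regions 1 and 2, 19.6% between regions 3 and 4, 7.99% between regions 5 and 4 and 4.32% between regions 3 and 5. Hspb1 was higher under the implant than on the other side within each of the 4 animals, at 22.5, 12.7, 34.9 and 144 FPKM against 4.62, 3.37, 4.87 and 56.5 FPKM, listed as control 1, control 2, stimulated 1 and stimulated 2. The difference was 2.097 on the log2 scale (SE 0.70, limma adjusted p = 0.0682), and blocking on the animal brought the adjusted p to 0.0362. The controls carried the implant too, and as ratios their own values lay further apart between the sides than those of stimulated animal 2. Without stimulated animal 2 the log2 fold change was 2.35 (limma adjusted p = 0.000171). Hsf1 was lower in region 1 than in region 2 under quantile normalization, by a log2 value of -0.31 (limma adjusted p = 0.00954), and under upper-quartile scaling, by -0.24 (limma adjusted p = 0.0308).

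From the lesion to the cord below it, Hspd1 differed by 0.28 on the log2 scale (SE 0.09, limma adjusted p = 0.0533) and Hsph1 by 0.29 (SE 0.10, limma adjusted p = 0.0818). Blocking on the animal brought the adjusted p to 0.0448 for Hspd1 and 0.0403 for Hsph1. Under quantile normalization the 2 differences were 0.08 each, with adjusted p-values of 0.381 and 0.611. The median gene differed by 0.14 in this contrast. Between region 3 and region 4 Hsph1 had a log2 fold change of 0.23 (limma adjusted p = 0.118), with all region 3 libraries above all region 4 libraries. Hspb1 was 94.0 ± 22.9 FPKM in region 3 (n = 4), 176 ± 28.7 FPKM in region 4 and 220 ± 10.7 FPKM in region 5. Its region 3 libraries were all below those of region 4 and of region 5, at log2 fold changes of -0.92 (limma adjusted p = 0.368) and -1.26 (limma adjusted p = 0.267). Both passed when regions 1 and 2 of stimulated animal 2 were left out of the fit, at adjusted p-values of 0.00822 and 0.00401, while the region 3, 4 and 5 values stayed the same and the SE fell to 0.24 from 0.70.

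The wider chaperone list held 96 tested genes of the HSP70, HSP90, HSP40, small heat shock protein, chaperonin, co-chaperone and heat shock factor families, the members left out. No gene of it passed limma for stimulation in any region, and 4, 4, 3, 0 and 2 had an unadjusted p under 0.05 in regions 1 to 5. Of all 15210 genes, 828, 215, 522, 341 and 546 had one. Genes of the list with both stimulated libraries above both controls numbered 17, 29, 4, 11 and 12 in regions 1 to 5, or 17.7%, 30.2%, 4.17%, 11.5% and 12.5%, beside 21.2%, 20.2%, 5.14%, 12.5% and 18.5% of all genes. Genes below both controls numbered 9, 1, 15, 1 and 4, beside 19.5%, 6.77%, 24.7%, 7.69% and 6.07% of all genes. These counts depended on the scaling. Upper-quartile scaling gave 26, 21, 18, 27 and 26 higher, beside 23.8%, 12.5%, 15.5%, 16% and 22.6% of all genes. It gave 20, 7, 6, 9 and 14 lower, beside 25.7%, 19%, 12.6%, 16.7% and 16.5%. Quantile normalization gave 25, 18, 21, 27 and 28 higher, beside 18.7%, 10.8%, 14.1%, 18.7% and 18.4% of all genes. It gave 20, 11, 6, 6 and 14 lower, beside 31.1%, 21.3%, 12.9%, 14.8% and 20.3%. They also depended on the animals, with 65, 49, 30, 85 and 13 higher without stimulated animal 2 and 30, 79, 9, 32 and 70 higher without control 1. All genes stood at 49.4%, 36.8%, 23.5%, 57.4% and 25.8% in the first case and at 33.5%, 56.9%, 18.9%, 29.7% and 61.5% in the second. The median log2 fold change of the list was -0.02, 0.13, -0.05, 0.03 and 0.05, within 0.05 of that of all genes in each region. No list gene was separated in the same direction in 4 or more regions, as 0.506% of all genes were upward and 0.46% downward.

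The 5 list genes with the largest mean difference over regions were Cryaa at 0.56, Cryab at 0.39, Dnajc22 at 0.37, Bag3 at 0.36 and Hspa2 at 0.32, with limma adjusted p-values from 0.643 to 1.00. Cryab (alpha B-crystallin, the small heat shock protein of glia) had a log2 fold change between 0.34 and 0.45 in each region. It was separated from the controls in regions 3, 4 and 5. Bag3, an HSP70 co-chaperone that HSF1 induces, had 0.79 in each of regions 1 and 2 and 0.02, 0.22 and 0.00 in regions 3 to 5. Cryaa rested on 1 library, region 2 of stimulated animal 2 at 2.76 FPKM. Its other 19 libraries lay between 0.1 and 0.372 FPKM.

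Other genes known as targets of HSF1 were read from a list of 17 tested genes, 13 of them also in the wider list. Both stimulated libraries were above both controls for 4, 5, 3, 2 and 5 of them in regions 1 to 5, or 23.5%, 29.4%, 17.6%, 11.8% and 29.4%, beside 21.2%, 20.2%, 5.14%, 12.5% and 18.5% of all genes. None passed limma, 2 had an unadjusted p under 0.05 in region 1 and 0 in the other regions, and 4 had one in the mean over regions. Of all 15210 genes, 828, 215, 522, 341 and 546 had one in regions 1 to 5 and 811 in the mean over regions. The scalings moved the counts of genes above both controls in the cord. Quantile normalization gave 9, 10 and 9 in regions 3, 4 and 5, beside 14.1%, 18.7% and 18.4% of all genes. Upper-quartile scaling gave 7, 10 and 9, beside 15.5%, 16% and 22.6%.

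**Figure D5:**
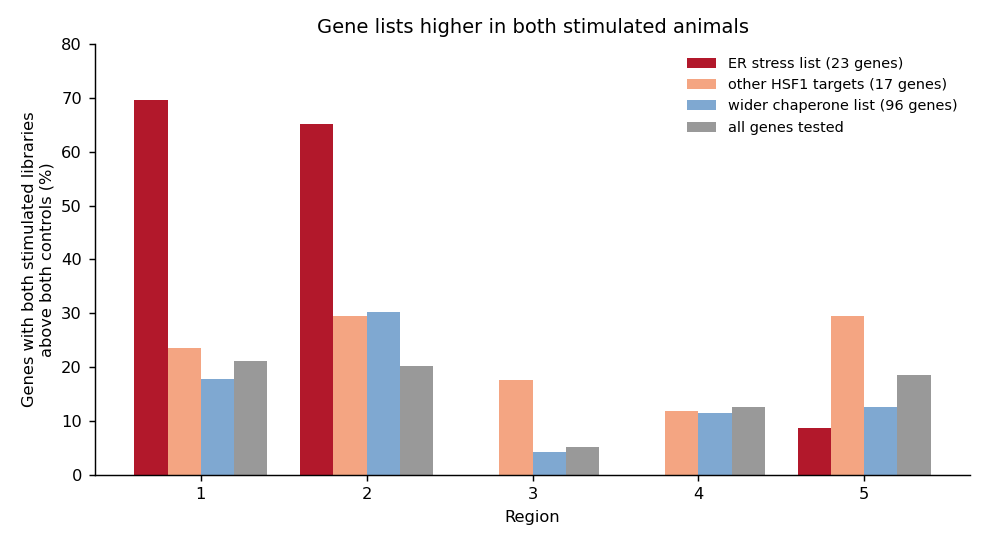
Share of genes, in percent, whose 2 stimulated libraries lie above both controls, by region, for the ER stress list, other HSF1 targets, the wider chaperone list and all tested genes. The ER list stands at 69.6% and 65.2% in regions 1 and 2 and at 0% in regions 3 and 4 of the values as deposited, against 5.14% to 21.2% for all genes. In region 3 both scalings gave 5 of its 23 genes, beside 15.5% of all genes under upper-quartile scaling and 14.1% under quantile normalization.

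Between tissues the wider list was mostly lower in white matter, with 59 of 96 genes lower and 14 higher, beside 47.1% and 25% of all genes. The median log2 fold change of the list was -0.29, beside -0.18 over all genes. Quantile normalization changed the split over all genes from 3808 higher and 7169 lower to 5054 higher and 6018 lower. All 8 other chaperonin genes tested, subunits of the cytosolic complex that folds actin and tubulin, were lower, with a median of -0.37. All 3 other HSP90 genes were lower as well, as were 6 of 9 other HSP70 genes, 4 of 6 other small heat shock proteins and 17 of 26 co-chaperones, of which 4 were higher. These family counts stand beside the same 47.1% lower and 25% higher of all genes. The HSP40 family was near those shares, with 20 of 42 lower and 10 higher. The non-overlapping genes furthest apart were Cryab, at 18.9 ± 8.66 FPKM against 117 ± 25.4 FPKM (log2 fold change -2.70, limma adjusted p = 3.00e-11), Hsf4, a heat shock factor best known from the lens (-2.30, limma adjusted p = 2.80e-12), and Hspa2, an HSP70 best known from the testis (-2.23, limma adjusted p = 2.88e-11). Of 12 genes of mitochondrial protein folding, the company of Hspd1, 9 were lower and 1 was higher, beside those shares of all genes.

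Within the brain and within the cord fewer list genes differed. Between regions 1 and 2, 4 were higher and 2 lower in region 1, beside 6.86% and 1.76% of all genes. Among them were Hspa2 at 0.83 (limma adjusted p = 0.0234), Dnajb3 at 0.63 (limma adjusted p = 0.0461) and Dnajc21 at -0.68 (limma adjusted p = 0.00434). Dnajb3 was low, at 0.823 to 0.925 FPKM in region 1 and 0.417 to 0.688 FPKM in region 2. Between regions 3 and 4, 9 were higher above the lesion and 1 lower, beside 12.8% and 6.78% of all genes. The 3 furthest apart were Dnajc6 (auxilin, which uncoats synaptic vesicles) at 0.56, Dnajc27 at 0.49 and Dnajc12 at 0.47, with limma adjusted p-values from 0.00415 to 0.0275. Between regions 5 and 4, 8 were higher below the lesion and 0 lower, beside 7.06% and 0.934% of all genes, led by Hspa12a at 0.52, Hspb8 at 0.52 and the ubiquitin ligase Stub1 (CHIP) at 0.42, with limma adjusted p-values from 0.00558 to 0.0291. Between regions 3 and 5, 0 were higher and 3 lower above the lesion, beside 1.55% and 2.77% of all genes. These were Hspb2 at -1.65, Hspb8 at -0.90 and Hspa2 at -0.82, with limma adjusted p-values from 0.00119 to 0.0351. Hspb2 was low, at 0.170 to 0.375 FPKM in region 3 and 0.463 to 1.27 FPKM in region 5. With the animal as a block the list genes past the threshold numbered 18 between regions 3 and 4, 23 between regions 5 and 4 and 5 between regions 3 and 5. Over all genes the block moved the count between regions 5 and 4 from 1216 to 1966.

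Immediate early genes follow neuronal activity and handling, and glucocorticoid targets follow stress hormones and dexamethasone, so both lists were read beside the chaperones. Of 21 immediate early genes, 6, 2, 3, 2 and 10 were higher in both stimulated animals in regions 1 to 5, or 28.6%, 9.52%, 14.3%, 9.52% and 47.6% beside 21.2%, 20.2%, 5.14%, 12.5% and 18.5% of all genes, with median log2 fold changes of 0.69, 0.20, 0.02, -0.14 and 0.12. None passed limma, and 1, 2, 1, 0 and 1 had an unadjusted p under 0.05, beside 828, 215, 522, 341 and 546 of all 15210 genes. The largest mean differences over regions were those of Npas4 at 0.88 (limma adjusted p = 0.619) and Fos at 0.60 (limma adjusted p = 0.304). Without control 1 the counts of genes higher in the stimulated animals were 20, 17, 12, 3 and 11, beside 33.5%, 56.9%, 18.9%, 29.7% and 61.5% of all genes. Without stimulated animal 2 they were 6, 9, 8, 9 and 11, or 28.6%, 42.9%, 38.1%, 42.9% and 52.4%. All genes then stood at 49.4%, 36.8%, 23.5%, 57.4% and 25.8%. Of 12 glucocorticoid targets, 5, 4, 7, 4 and 8 were higher in both, or 41.7%, 33.3%, 58.3%, 33.3% and 66.7% beside the same shares of all genes with every animal. In the mean over regions 2 passed. These were the metallothioneins Mt2A, at 0.95 (SE 0.17, limma adjusted p = 0.0328), and Mt1, at 0.86 (SE 0.16, limma adjusted p = 0.0470). Each passed under 4 of 12 alternatives. Without stimulated animal 2 their adjusted p-values were 0.381 and 0.689, and under quantile normalization both were 0.803.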

How the data were processed

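Total RNA of 20 tissue pieces (4 rats, 5 regions) had been depleted of ribosomal RNA and sequenced as paired reads. Per the labels and the study's methods, reads were checked with FastQC and MultiQC 1.6, aligned to Rnor6 with TopHat2 2.1.0 and quantified with Cufflinks 2.2.1; the annotation version, the use of strand and the split of reads between near-identical copies are not given in the sources used here. The authors deposited FPKM per gene with values under 0.1 raised to 0.1, and 8478 genes stand at 0.1 in every library. FPKM carries no read counts, so precision rests on the spread between libraries. For stimulation the p-values measure that spread for 2 animals per group. For the region contrasts they measure the spread of libraries within regions, pooled over the regions and both groups. Every column belonged to a library.

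Values were log2-transformed and genes with at least 1 FPKM in any library were kept. Stimulation was fitted with limma 3.58.1 (lmFit, eBayes with trend) in R 4.3.3 on the 4 libraries of each region, and on the mean over regions of each animal. Regions were compared in 1 limma fit of 20 libraries with a mean per region. P-values were adjusted by Benjamini-Hochberg across every tested gene, and 0.05 was the threshold. The steps were run on simulated data with independent noise in each library and no animal effect. That run could not check the treatment of the libraries of 1 animal as independent. Other steps used Python 3.11.15, pandas 2.3.3, numpy 2.4.6, scipy 1.17.1 and matplotlib 3.10.9.

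The members, gene lists and tests were chosen with earlier results of these data known. The text names all members and Hspa1a; of the wider list, the 3 non-overlapping genes with the largest change past the threshold per region contrast, and for stimulation those separated in 4 or more regions and the 5 with the largest mean difference; the 5 genes most like Hspa1b; and 2 genes each of the immediate early and glucocorticoid lists. Genes outside this rule are said to be so or serve as a check of levels. A symbol with several entries was read from the one with the highest mean.

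Libraries of 1 animal pair the regions. Their deviations from the region means, taken over both groups, correlated at 0.413 to 0.768 in the pair of white matter regions. They correlated at 0.136 to 0.255 between region 3 and region 4 and at -0.0883 to 0.105 between region 4 and region 5. Between region 3 and region 5 the range was 0.0224 to 0.180. The region fit treats the libraries of 1 animal as independent, and a fit blocked on the animal is given where it changed a call. Alternatives were log2(FPKM + 1), no filter, 1 FPKM in at least 2 libraries, scaling by the upper quartile, quantile normalization, no trend in eBayes, 1 model of all libraries, blocks, and leaving out each animal. Crossed replicate numbers and leaving out regions 1 and 2 of stimulated animal 2 were added after the data were seen.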

Additional observations from a re-analysis of the deposited data

Results flagged for a closer look

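Of 40 groups of 4 libraries (8 members in 5 regions), 5 had a library far from the other 3, by the ratio of its gap to the range of the group against Dixon's 95% critical value for 4 samples. Chance alone gives about 1 such group in 20. Hspb1 in region 2 was highest in stimulated animal 2, with a ratio of 0.87. Hspa5 in region 3 was highest in stimulated animal 1, with a ratio of 0.884. In the other 3 control 2 was lowest: Hspa8 in region 1 with a ratio of 0.833, Hsph1 in region 2 with 0.911 and Hsf1 in region 5 with 0.918.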

How the results depend on the processing

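The number of genes past the threshold for stimulation depended on the setting in each region, from its value of 0 in regions 1 to 4, 3 in region 5 and 24 in the mean over regions. Without a filter it was 6, 1, 3 and 22 in regions 1, 2, 3 and 5 and 1 in the mean. In a model of all libraries it was 1 in each of regions 1 to 4 and 18 in region 5. In region 5 log2(FPKM + 1) and upper-quartile scaling gave 0, and in the mean they gave 11 and 0, with 0 under quantile normalization. Without a trend in eBayes both counts were 1. Leaving out each animal gave 0 to 228, 0 to 548, 8 to 140 and 0 to 147 genes in regions 1, 2, 4 and 5 and 27 to 466 in the mean; without stimulated animal 1 the counts were 228, 548, 147 and 466 in region 1, region 2, region 5 and the mean, and without control 2 the count was 140 in region 4. Where an animal was left out, the lone animal of its group is assumed to vary like the other group. Members higher in both stimulated animals numbered 5 to 8, 5 to 8, 3 to 6, 3 to 8 and 3 to 8 in regions 1 to 5 when each animal was left out. The shares of all genes were 24.9% to 49.4%, 24.7% to 56.9%, 10.4% to 23.5%, 19.4% to 57.4% and 22.8% to 61.5%. Both scalings gave 5 members in region 3, beside 15.5% (upper-quartile) and 14.1% (quantile) of all genes.

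Replicate numbers 1 and 2 name different animals in the 2 groups. Deviations of same-numbered libraries correlated at -0.213, -0.0974, -0.106, 0.321 and -0.164 in regions 1 to 5, and the labels do not pair them. With the replicate block the count was 443 in region 5 and 0 in each other region and in the mean. With crossed numbers it was 118 in region 4, 0 in region 5 and 401 in the mean.

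For regions 1 and 2 the count of 1310 became 698 without a filter and 2247 under upper-quartile scaling. For regions 3 and 4 the count of 2984 became 4842 under quantile normalization and 4603 under upper-quartile scaling. For regions 5 and 4 the count of 1216 became 578 without a filter, 470 under quantile normalization, 627 under upper-quartile scaling and 1966 with the animal as a block. For regions 3 and 5 the count of 657 became 1109 under quantile normalization and 1169 under upper-quartile scaling. The scalings moved the median of all genes by over 0.1 in several contrasts, from -0.18 to -0.04 for white matter and from 0.14 to 0.03 for regions 5 and 4 under quantile normalization. They also moved the split, from 1074 higher and 142 lower to 275 and 195 for regions 5 and 4, from 1043 and 267 to 943 and 841 for regions 1 and 2, from 235 and 422 to 674 and 435 for regions 3 and 5, and from 1953 and 1031 to 2487 and 2116 for regions 3 and 4 (upper-quartile). Leaving out each animal gave 26 to 3674, 523 to 4909, 5 to 1097 and 54 to 1237 genes in these 4 contrasts, in the order given, the highest in each being without stimulated animal 2. Without regions 1 and 2 of that animal they were 3335, 5126, 3314 and 3034.

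Chaperone list genes past the threshold between regions 1 and 2 numbered 3 under log2(FPKM + 1), 2 without a filter, 11 under upper-quartile scaling and 0 to 12 without each animal. Between regions 3 and 4 they numbered 5 without a filter, 23 under each scaling, 18 with the animal as a block, 20 without regions 1 and 2 of stimulated animal 2 and 1 to 15 without each animal. Between regions 5 and 4 they numbered 4 without a filter, 3 under quantile normalization, 5 under upper-quartile scaling, 23 with the block, 33 without those libraries and 0 to 10 without each animal. Between regions 3 and 5 they numbered 5 under quantile normalization, 5 with the block, 7 without those libraries and 1 to 4 without each animal.

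Of the members' values in the region contrasts under alternatives, 428 kept their direction and side of the threshold, 18 passed it newly, 8 no longer passed and 26 turned sign, each of the last with a value that had not passed. Under quantile normalization these were Hspa8 at 0.086 and Hsph1 at 0.083 (white matter), Hspa1b at 0.086 (regions 3 and 4), Hspa5 at -0.039 (regions 5 and 4) and, for regions 3 and 5, Hsph1 at 0.090 and Dnajb1 at 0.050. Under upper-quartile scaling they were Hsph1 at 0.051 (white matter), Hsph1 at -0.0023 and Hspd1 at -0.052 (regions 1 and 2), Hspa8 at -0.018 (regions 3 and 4), Hspa5 at -0.011 and Hsf1 at -0.069 (regions 5 and 4) and, for regions 3 and 5, Hsph1 at 0.064 and Dnajb1 at 0.041. Under log2(FPKM + 1) it was Hspa8 at -0.00699 (regions 3 and 4). Without each animal Hsph1 ranged from -0.063 to 0.021 (white matter), Hspd1 from -0.020 to 0.044 (regions 1 and 2) and from -0.0012 to 0.14 (regions 3 and 4), Hspa8 from -0.20 to 0.19 (regions 3 and 4), -0.40 to 0.26 (regions 5 and 4) and -0.068 to 0.57 (regions 3 and 5), and, for regions 3 and 5, Dnajb1 from -0.15 to 0.029 and Hsf1 from -0.040 to 0.051. The cause of these changes was not tested.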
